A study of Rattus norvegicus with 6 samples.

Results

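The genes described here encode the subunits of the proteasome, its activators and the chaperones that assemble it. They are the rows of the deposited tables whose symbol starts with Psm, a letter from a to g and a digit, which gave 48 of 17093 genes. Expression was measured by RNA sequencing of ribosome-depleted total RNA in cultured rat nucleus pulposus cells, isolated from the soft centre of the spinal disc of male animals and used at passages 3 to 6. Control cells (3 libraries) stayed in DMEM-F12 with 10% fetal bovine serum, and serum-starved cells (3 libraries) were in medium without it, with 48 h given as the time for both. Whether the 3 libraries of a group stem from different animals or dishes is not stated in the labels, and the p-values therefore reflect the spread between libraries, which may be technical.

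The 26S proteasome degrades proteins marked with ubiquitin. Its 20S core is a barrel of outer rings of alpha subunits, which gate the entry, and inner rings of beta subunits, 3 kinds of which carry the protease sites. The 19S regulatory particle caps the barrel: its base holds a ring of 6 ATPases that unfold the substrate, and its lid removes the ubiquitin chain. Interferon can replace the catalytic subunits by immunoproteasome forms, and other activators (PA28 and PA200) can take the place of the 19S cap. In fibroblast-like and disc cells, as in most cells, the constitutive subunits are made all the time, because regulatory, damaged and cell cycle proteins are removed through them.

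Most members were lower in serum-starved cells, typically by a modest amount. Of the 47 members with enough signal to be tested, 32 fell, 2 rose and 13 did not pass (limma, Benjamini-Hochberg adjusted p of at most 0.05), against a background of 29.4% of 11493 tested genes that fell and 31.7% that rose. That is 68.1% of the tested members lower and 4.26% higher. The median log2 fold change, serum-starved minus control on the log2(FPKM + 1) scale, was -0.29 over the members and 0.03 over all tested genes. The interquartile range was -0.38 to -0.17 over the members and -0.32 to 0.35 over all tested genes. Every serum-starved library was below every control in 36 of the tested members (76.6%) and above in 3 (6.38%), against 32.5% and 35.7% of all tested genes. The members that rose were the activator gene Psme4, which rose 1.64-fold, and the chaperone gene Psmg3, which rose 1.16-fold.

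**Figure D1:**
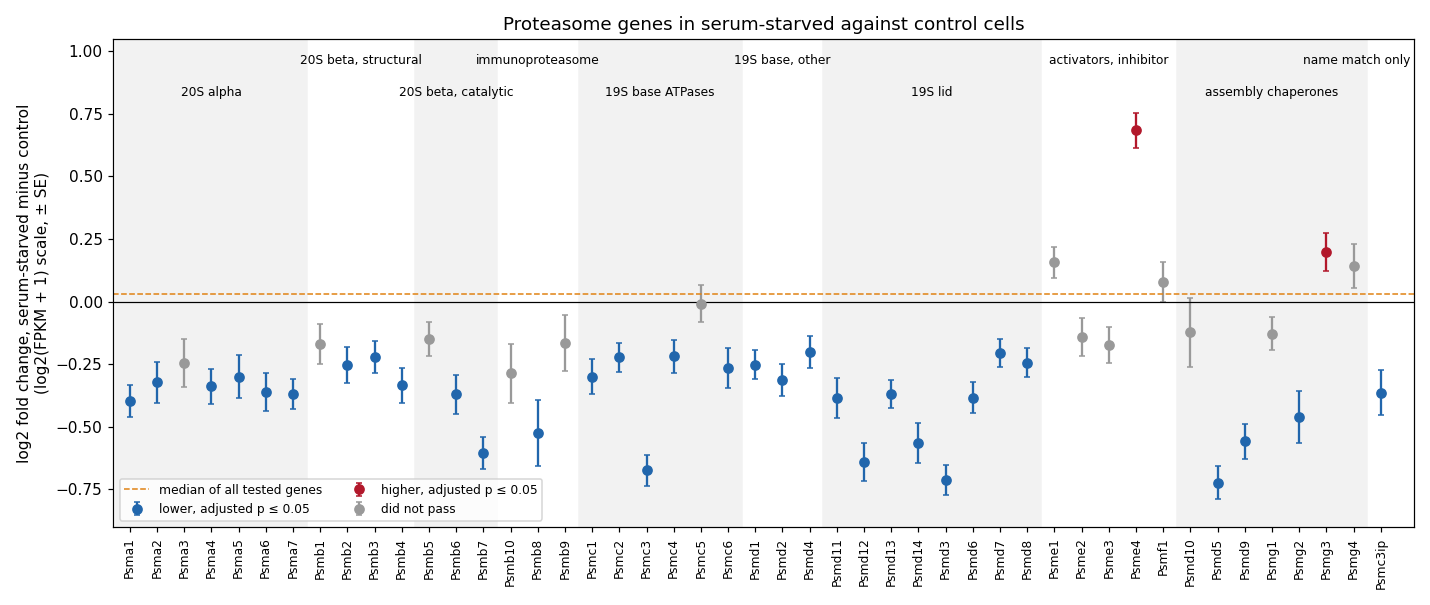
Log2 fold change (serum-starved minus control, log2(FPKM + 1) scale, bars are SE) of the 47 tested members, ordered by class on the x axis. Blue points fell, red points rose, grey points did not pass, and the dashed line is the median of all tested genes at 0.03. Most points lie below 0, Psmd5 is lowest at -0.72 and Psme4 highest at 0.68.

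The size of this difference depends on how libraries are scaled. The deposited values summed to between 447788 and 473452 in serum-starved libraries and to between 522165 and 530095 in controls, and the members made up 0.557% to 0.567% of that sum in serum-starved libraries and 0.591% to 0.618% in controls. Scaling every library to the same total moved the median of all tested genes by 0.18, to 0.21, and the median of the members to -0.11. On that scale 14 members fell and 5 rose, against 20.2% and 46.1% of all tested genes. After quantile normalization 20 members fell and 3 rose (background 26.7% and 34.3%), and with median-ratio scaling 38 fell and 1 rose (background 32.5% and 28.8%). Relative to the median of all tested genes, the members' median was -0.32 on the deposited scale, -0.32 with the same total and -0.21 after quantile normalization. Same-total and median-ratio scaling divide each library by a single factor, so the distance from that median could hardly change under them. All 32 members that fell had a log2 fold change below 0 under these 3 scalings, and 14 of them also passed the test under each. Counts below are on the deposited scale, followed where they differ by those with the same total. The background for each class is 29.4% of all tested genes that fell and 31.7% that rose, or 20.2% and 46.1% with the same total. A bulk measurement cannot tell fewer cells of a type from less RNA per cell.

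**Figure D2:**
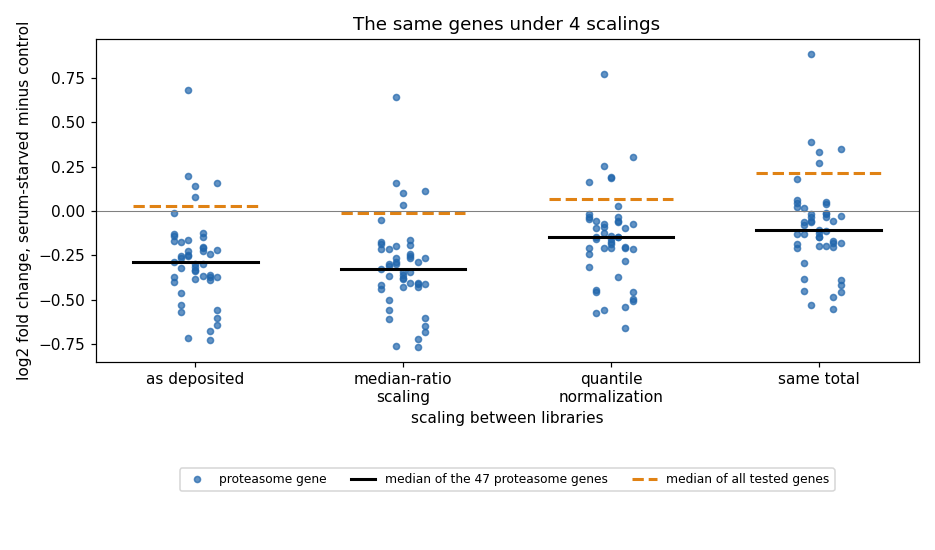
Log2 fold change (y axis, serum-starved minus control) of the 47 tested members under 4 scalings between libraries (x axis). Black lines are the members' medians (-0.29, -0.33, -0.15 and -0.11 from left to right) and dashed lines the medians of all tested genes, which lie above the members' medians under each of the 4 scalings. Median-ratio and same-total scaling move all genes of a library nearly alike, so this order could hardly change under them.

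Promoter sequences are shown for the member that rose most and for members with large falls in the core, the base, the lid, the chaperones and the immunoproteasome. They come from RefSeq (assembly GRCr8), matched by gene ID, which found 43 of the 48 members, and each is the 250 bases before the gene's start, written 5′ to 3′ on the gene's strand. Capitals mark matches, on either strand, to the core of the antioxidant response element (TGANNNNGC), the CCAAT box (CCAAT), the interferon-gamma activated site (TTCNNNGAA) or the interferon response core. The antioxidant response element is the site through which the factors Nfe2l1 and Nfe2l2 act on proteasome genes, the CCAAT box is bound by NF-Y, and the interferon sites by factors that act on immunoproteasome genes.
Psme4, chr14:108706393-108706642, plus strand: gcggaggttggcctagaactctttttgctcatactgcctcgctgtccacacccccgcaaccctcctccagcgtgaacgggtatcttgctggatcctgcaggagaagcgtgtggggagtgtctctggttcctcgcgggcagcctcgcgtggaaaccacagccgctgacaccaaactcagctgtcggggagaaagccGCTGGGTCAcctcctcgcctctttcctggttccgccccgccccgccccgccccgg
Psmb7, chr3:42827471-42827720, minus strand: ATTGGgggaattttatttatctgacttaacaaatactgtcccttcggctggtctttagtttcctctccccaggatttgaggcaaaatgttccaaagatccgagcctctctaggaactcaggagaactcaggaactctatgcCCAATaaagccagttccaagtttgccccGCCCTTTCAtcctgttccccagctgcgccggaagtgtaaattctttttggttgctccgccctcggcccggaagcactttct
Psmc3, chr3:97487393-97487642, plus strand: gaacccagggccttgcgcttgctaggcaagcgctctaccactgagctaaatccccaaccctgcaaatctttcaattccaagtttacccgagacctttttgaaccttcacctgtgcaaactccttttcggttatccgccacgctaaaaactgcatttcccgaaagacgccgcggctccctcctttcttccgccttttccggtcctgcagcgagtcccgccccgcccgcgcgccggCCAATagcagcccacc
Psmd3, chr10:84139688-84139937, plus strand: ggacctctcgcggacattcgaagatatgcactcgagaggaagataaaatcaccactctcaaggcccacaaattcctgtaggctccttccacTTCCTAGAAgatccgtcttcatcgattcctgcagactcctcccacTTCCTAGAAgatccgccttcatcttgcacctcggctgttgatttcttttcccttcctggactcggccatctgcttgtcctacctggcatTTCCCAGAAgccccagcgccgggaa
Psmd5, chr3:38548491-38548740, minus strand: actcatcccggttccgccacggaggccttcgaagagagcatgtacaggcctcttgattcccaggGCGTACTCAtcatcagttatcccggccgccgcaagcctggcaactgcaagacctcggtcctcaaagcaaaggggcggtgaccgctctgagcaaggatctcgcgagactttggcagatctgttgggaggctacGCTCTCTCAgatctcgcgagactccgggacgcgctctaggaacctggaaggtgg
Psmb8, chr20:4657032-4657281, minus strand: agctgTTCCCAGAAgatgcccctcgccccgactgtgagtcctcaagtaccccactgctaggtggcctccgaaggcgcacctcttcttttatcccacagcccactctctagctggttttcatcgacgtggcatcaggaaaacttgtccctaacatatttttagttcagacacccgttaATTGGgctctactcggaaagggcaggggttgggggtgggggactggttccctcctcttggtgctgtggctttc

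The Psme4 window held 1 match to the antioxidant response core, written on the other strand as GCTGGGTCA, and Psmd5 held 2 such matches. Psmb7 held 1 of these and 2 CCAAT boxes, and Psmc3 held 1 CCAAT box close to its start. The Psmd3 window held 3 matches to the interferon-gamma activated site, of which TTCCTAGAA occurred 2 times, and Psmb8 held 1 such match and 1 CCAAT box. In all, the antioxidant response core was in 18 of 43 member promoters (41.9%) and in 34.6% of all 27457 promoters of the same length, and the CCAAT box in 21 (48.8%) against 34.3%. The interferon-gamma activated site was in 4 member promoters (9.30%, against 7.52% of all) and the interferon response core in 5 (11.6%, against 3.29%). These matches are a description of letters, not of binding.

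Among the 7 alpha subunits, which build the outer rings, 6 fell and 1 did not pass, within a narrow range of -0.40 to -0.25 (median -0.34). Of these, 2 fell with the same total. The background was 29.4% of all tested genes that fell, and 20.2% with the same total. Psma1 (gene ID 29668) was at 68.6, 62.8 and 66.9 FPKM in serum-starved replicates 1, 2 and 3 and at 89.4, 88.7 and 83.8 in controls. Every serum-starved library was below every control, a 1.32-fold lower mean (log2 fold change -0.40 ± 0.063 SE, limma, Benjamini-Hochberg adjusted p = 0.000771). Psma7 fell 1.29-fold, Psma6 1.28-fold, Psma4 1.27-fold, Psma2 1.25-fold and Psma5 1.23-fold. Psma3 was at 40.9, 39.7 and 37.7 in serum-starved libraries and at 52.1, 49.1 and 40.2 in controls, so control replicate 3 lay among the serum-starved values (log2 fold change -0.25 ± 0.097, limma, Benjamini-Hochberg adjusted p = 0.0558). Without that control library its adjusted p was 0.00316 (limma, Benjamini-Hochberg). It passed in no other fit that left out a library (adjusted p up to 0.168).

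The beta subunits ran over a wider range than the alpha subunits. Of the 4 structural ones, 3 fell (Psmb4 1.27-fold, Psmb2 1.19-fold, Psmb3 1.17-fold), and 1 did not pass. With the same total their log2 differences were -0.14, -0.06 and -0.03, and these did not pass. Without serum-starved replicate 2 only Psmb4 fell. Psmb1, the most abundant core gene, was at 158 ± 13.5 in serum-starved and 177 ± 9.43 in control libraries (SD, n = 3 each), with a 95% interval of the log2 difference from -0.35 to 0.01. Psmb7 (gene ID 85492), the trypsin-like catalytic subunit, was at 97.8, 93.3 and 93.1 in serum-starved libraries and at 148, 150 and 136 in controls. The groups lay far apart, and Psmb7 fell 1.53-fold (log2 fold change -0.60 ± 0.064, limma, Benjamini-Hochberg adjusted p = 8.9e-05). Psmb6, the caspase-like subunit, fell 1.30-fold, from 81.8 ± 5.03 to 63.1 ± 4.96. Psmb5, the chymotrypsin-like subunit, was at 62.3, 54.9 and 56.0 against 62.3, 64.4 and 65.3 in controls. Its highest serum-starved value almost touched the lowest control, with a log2 difference of -0.15 and a 95% interval from -0.30 to 0.01. The 3 catalytic subunits sit in the same ring, and their log2 fold changes ran from -0.60 to -0.15. With the same total, Psmb7 fell (log2 fold change -0.41), Psmb6 was at -0.18 and Psmb5 at 0.04.

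The immunoproteasome subunits were expressed at a few percent of their constitutive counterparts. Psmb8 (gene ID 24968), which replaces Psmb5, was at 2.41, 2.01 and 1.79 in serum-starved libraries and at 2.91, 3.21 and 4.20 in controls. It fell 1.66-fold with no overlap (log2 fold change -0.53 ± 0.131, limma, Benjamini-Hochberg adjusted p = 0.00814), and with the same total by 0.45 on the log2 scale. Psmb9, which replaces Psmb6, was at 4.04, 3.05 and 3.16 against 3.60, 3.87 and 4.33, with overlapping groups (log2 difference -0.16, 95% interval -0.42 to 0.09). Psmb10, which replaces Psmb7, was at 6.56, 5.42 and 6.28 against 7.20, 6.70 and 9.17 (log2 difference -0.29, 95% interval -0.56 to -0.01, limma, Benjamini-Hochberg adjusted p = 0.0659). Control replicate 3 was the highest of the 6 libraries for all 3 genes. Leaving that library out brought the log2 fold change of Psmb8 to -0.41 (limma, Benjamini-Hochberg adjusted p = 0.0209). Without it Psmb10 was at -0.17 and did not pass (limma, Benjamini-Hochberg adjusted p = 0.178). Among the fits that left out a library, Psmb10 passed only without control replicate 2 (limma, Benjamini-Hochberg adjusted p = 0.0404).

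Psmb8 stood at 3.58% ± 0.345 of Psmb5 in serum-starved cells and at 5.36% ± 0.939 in controls (SD, n = 3 each). The log2 ratio of Psmb8 to Psmb5, each with 1 FPKM added, was 0.38 lower (two-sided exact permutation p = 0.1, the smallest that 3 against 3 allows, 0.3 adjusted over the 3 ratios). Psmb9 stood at 5.44% ± 1.03 of Psmb6 against 4.84% ± 0.760 in controls (exact permutation p = 0.3, adjusted 0.3). Psmb10 stood at 6.42% ± 0.532 of Psmb7 against 5.36% ± 1.23 (exact permutation p = 0.2, adjusted 0.3). The sign thus differed between the ratios, and none could pass at this number of libraries. Psmb8 and Psmb9 are neighbours in the RefSeq annotation with only the coding gene Tap1 between them, which encodes a subunit of the peptide transporter. Tap1 fell (log2 fold change -0.21, limma, Benjamini-Hochberg adjusted p = 0.0354), but it passed in only 1 of the 6 fits that left out a library, the one without serum-starved replicate 2.

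**Figure D3:**
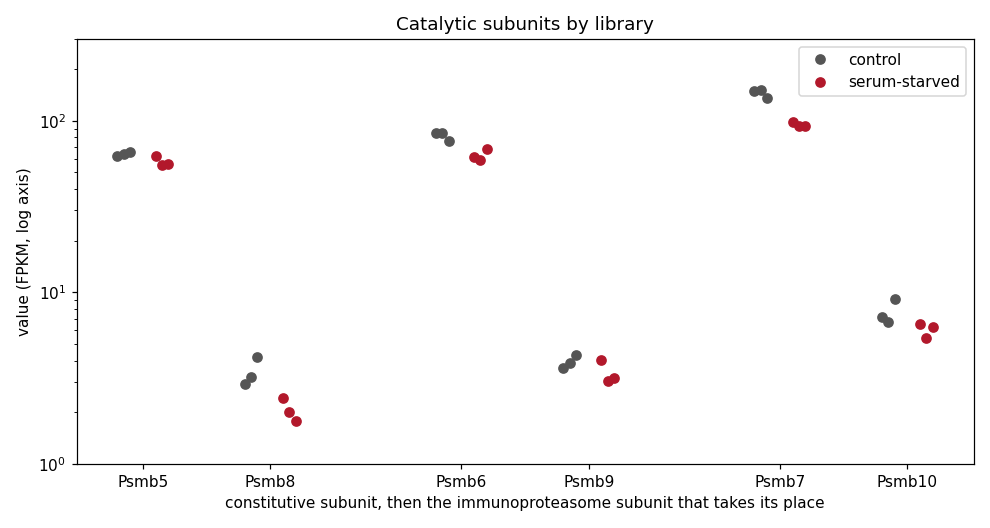
Value in each library (y axis, FPKM on a log axis) of the constitutive catalytic subunits Psmb5, Psmb6 and Psmb7, each followed by the immunoproteasome subunit that takes its place. Each point is a library, 3 control (grey) and 3 serum-starved (red). The immunoproteasome genes lie more than 10 times lower than their counterparts. Control and serum-starved points are apart in Psmb7, Psmb6 and Psmb8, almost touch in Psmb5 and Psmb10 and overlap in Psmb9.

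Leukocytes carry immunoproteasomes constitutively, so their markers were read beside these genes. Of 12 leukocyte symbols 7 were matched, of which 5 stayed below 1 FPKM in every library: Adgre1, Csf1r, Lyz2, Cd79a and Fcer1g. Their summed level was 10.7 to 14.3 in serum-starved and 23.7 to 30.2 in control libraries, most of it Cd14 at 8.54 ± 1.86 and 24.8 ± 2.85, and Cd68 was at 3.38 ± 0.600 and 1.96 ± 0.467. The part of this in the result for Psmb8 was not tested. Of 16 nucleus pulposus symbols 11 were matched, with a summed level of 133 to 141 in serum-starved and 270 to 313 in control libraries. Of the 8 that were tested 6 fell and 2 rose. Acan was at 3.05 ± 0.333 and 77.5 ± 28.1 and Sox9 at 1.27 ± 0.0723 and 5.11 ± 0.668, in serum-starved and control libraries, while Car3 rose to 26.1 ± 0.852 from 1.03 ± 0.219 and Pax1 to 51.2 ± 5.02 from 27.5 ± 3.43. Krt18 was listed at 0 in all 6 libraries and Col2a1 did not exceed 0.06. The part of these shifts in the proteasome results was not tested. The 6 annulus and fibroblast markers summed to 3469 to 3620 and 2746 to 3122, most of it Col1a1, and 4 rose and 1 fell. Dcn rose to 240 ± 41.6 from 26.7 ± 15.4, Lum 4.31-fold and Pdgfra 2.09-fold, while Thy1 fell 3.10-fold. Of the 5 endothelial symbols 3 were matched, with sums of 0.62 to 0.79 and 0.58 to 1.19, and the unmatched symbols of these lists were not analysed here. Psmb11, the thymus form of the catalytic subunit, was at 0.03 or less in every library and was not tested, and no row carried the symbol of the testis form Psma8.

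In the 19S base, 5 of the 6 ATPase genes fell, against 29.4% of all tested genes, and the median of the 6 was -0.24. With the same total 1 of the 6 fell, against 20.2% of all tested genes. On the deposited scale 3 of the 6 fell without serum-starved replicate 3 or without control replicate 1. Psmc3 (gene ID 29677), the most abundant member in controls, was at 119, 109 and 110 in serum-starved libraries and at 178, 185 and 177 in controls. It fell 1.60-fold, apart from the other ATPase genes (log2 fold change -0.67 ± 0.062, limma, Benjamini-Hochberg adjusted p = 4e-05). Psmc1 fell 1.23-fold, Psmc6 1.21-fold, and Psmc2 and Psmc4 each 1.17-fold. Psmc5 was at 61.2, 63.6 and 60.0 in serum-starved libraries and at 65.1, 65.0 and 56.0 in controls. Its groups lay on top of each other, with a log2 difference of -0.01 and a 95% interval from -0.18 to 0.16. The 6 ATPases form 1 ring with a single copy of each, and their log2 fold changes ran from -0.67 to -0.01.

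The 3 other base genes all fell on the deposited scale, and with the same total, at -0.12 (Psmd2), -0.06 (Psmd1) and -0.01 (Psmd4), they did not pass. Psmd2, the docking platform for shuttle proteins that bring substrates, fell 1.24-fold, from 109 ± 0.777 to 87.6 ± 5.27. The scaffold gene Psmd1 fell 1.19-fold, and the ubiquitin receptor gene Psmd4 1.15-fold. Psmd4 did not pass without serum-starved replicate 2 or 3, or without control replicate 1 or 2.

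In the lid, which surrounds the base from the side, all 8 genes fell with no overlap between groups. The background was 29.4% of all tested genes that fell and 32.5% that were lower with no overlap. The median of the lid genes was -0.39, and 6 of the 8 also fell with the same total (background 20.2%). Psmd3 (gene ID 287670), a structural lid subunit, was at 44.6, 44.4 and 45.5 in serum-starved libraries and at 73.3, 71.4 and 77.9 in controls. The serum-starved libraries were nearly equal, and Psmd3 fell 1.66-fold (log2 fold change -0.71 ± 0.060, limma, Benjamini-Hochberg adjusted p = 2.4e-05). Psmd12 (gene ID 287772), another scaffold of the lid, was at 43.4, 38.8 and 36.5 against 64.4, 61.4 and 60.3, and fell 1.57-fold. Psmd14 (gene ID 311078), the metalloprotease that cuts off the ubiquitin chain, was at 30.2, 31.0 and 29.5 against 48.9, 46.9 and 40.3, and fell 1.50-fold. Its structural partner in the lid, Psmd7, which has no protease activity, fell 1.16-fold, from 96.1 ± 2.24 to 83.1 ± 1.29. Psmd11 fell 1.32-fold, Psmd6 1.31-fold, Psmd13 1.30-fold and Psmd8 1.19-fold. Psmd7 and Psmd8 were the lid genes that did not pass with the same total, and Psmd7 did not pass without serum-starved replicate 3 or control replicate 2.

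**Figure D4:**
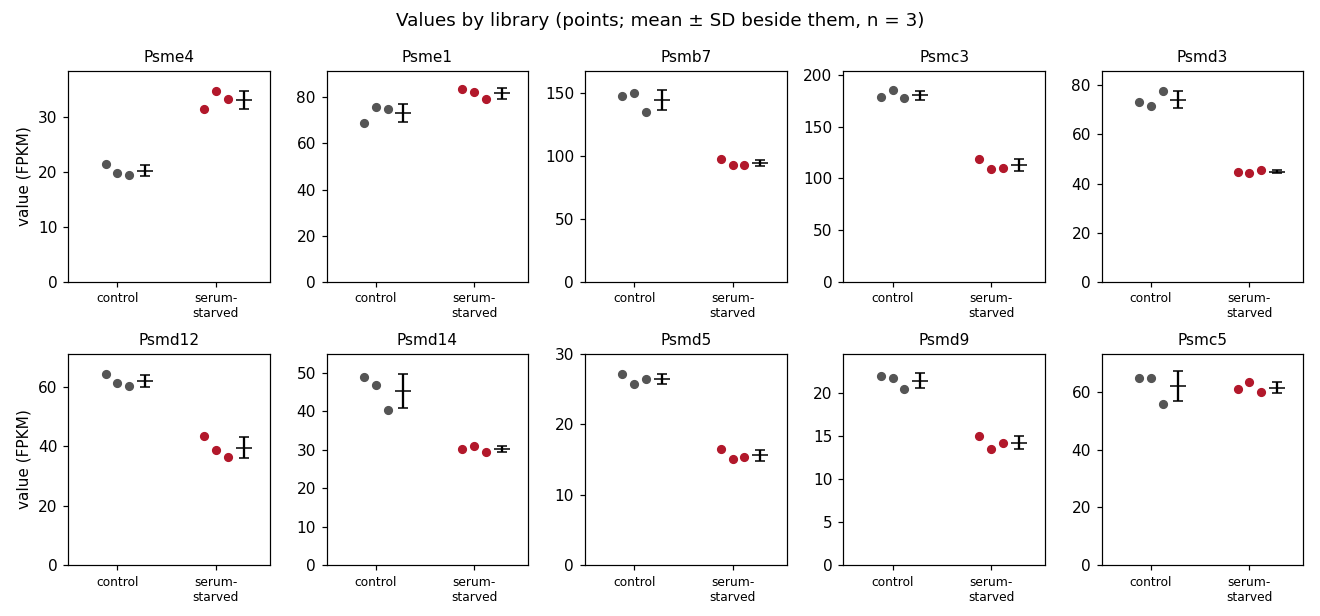
Value in each library (y axis, FPKM, from 0) of 10 members, with control libraries in grey, serum-starved ones in red, and the mean ± SD (n = 3) beside the points. Psme4 and Psme1 are higher in every serum-starved library, Psmc5 overlaps, and the other 7 are lower in every serum-starved library.

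Levels can be compared between subunits only if the values are scaled by gene length, as is assumed here. Values of members with copies, described below, are less certain. Over the 31 genes of the constitutive core and the 19S particle, the control means ran from 36.6 (Psmd11) to 180 FPKM (Psmc3), a 4.93-fold span. In serum-starved cells they ran from 27.7 (Psmd11) to 158 (Psmb1), a 5.69-fold span. Their order was nearly kept, with a Spearman rho of 0.98 across these genes, which share libraries and are not replicates. In controls Psmc3 (180 ± 4.20) and Psmb1 (177 ± 9.43) did not differ beyond their spread, and in serum-starved cells they were at 113 ± 5.70 and 158 ± 13.5. Psmd12 (62.0 ± 2.09) and Psmc5 (62.1 ± 5.23) did not differ beyond their spread in controls, and were at 39.6 ± 3.54 and 61.6 ± 1.85 without serum.

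Among the activators other than the 19S cap and the inhibitor, 1 of 5 genes rose and the other 4 did not pass. With the same total 3 rose. The background was 31.7% of all tested genes that rose, and 46.1% with the same total. The median of the 5 genes was 0.08. Psme4 (gene ID 498433), which encodes PA200, an activator that opens the core for unfolded proteins and acetylated histones without ubiquitin, was at 31.5, 34.8 and 33.4 in serum-starved libraries and at 21.4, 19.9 and 19.5 in controls. It rose 1.64-fold with no overlap (log2 fold change 0.68 ± 0.069, limma, Benjamini-Hochberg adjusted p = 6.4e-05), and by 0.89 on the log2 scale with the same total. Psme1, a subunit of the PA28 ring that interferon induces, was at 83.7, 82.2 and 79.2 against 68.9, 75.8 and 75.1. Every serum-starved library was above every control, and yet the test was missed narrowly (log2 difference 0.16, limma, Benjamini-Hochberg adjusted p = 0.0593). With the same total Psme1 rose by 0.35 (limma, Benjamini-Hochberg adjusted p = 0.00112). Its ring partner Psme2, which lies beside it in the RefSeq annotation with 1 coding gene between (Emc9), was at 38.2, 34.1 and 35.8 against 40.0, 36.9 and 42.8. Psme2 did not pass (95% interval of the log2 difference -0.32 to 0.03), and with the same total its log2 difference was 0.05. Psme3, the nuclear PA28 form, was at 40.4 ± 2.08 against 45.7 ± 3.07 and did not pass. Psmf1, which encodes the inhibitor PI31, was at 38.2 ± 1.76 against 36.2 ± 3.28 (95% interval -0.10 to 0.26), and with the same total it rose by 0.27 (limma, Benjamini-Hochberg adjusted p = 0.0138). Of the summed level of the 4 activator genes, Psme4 made up 17.4% ± 1.10 in serum-starved and 11.3% ± 0.582 in control libraries (SD, n = 3 each).

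The median of the 7 assembly chaperones was -0.13, and 3 fell while 1 rose (3 and 2 with the same total). The background was 29.4% of all tested genes that fell and 31.7% that rose, or 20.2% and 46.1% with the same total. Among the base chaperones, which hold pairs of ATPases before the ring closes, Psmd5 (gene ID 296651) was at 16.5, 15.0 and 15.3 in serum-starved libraries and at 27.2, 25.8 and 26.4 in controls. Psmd5 fell 1.69-fold, with a log2 fold change of -0.72 ± 0.066, the lowest among the members (limma, Benjamini-Hochberg adjusted p = 3.7e-05). Psmd9 was at 15.0, 13.5 and 14.1 against 22.0, 21.8 and 20.4, and fell 1.51-fold with no overlap. Psmd10, also known as gankyrin, was at 5.35, 8.08 and 7.93 against 8.17, 7.75 and 7.29, with serum-starved replicate 1 below the other libraries (95% interval of the log2 difference -0.44 to 0.19). Psmd5 and Psmd9 also fell with the same total, by 0.55 and 0.39 on the log2 scale.

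The 20S chaperones work as pairs, Psmg1 with Psmg2 and Psmg3 with Psmg4, that build the alpha ring. Psmg2 was at 12.1, 9.75 and 9.72 against 16.2, 13.4 and 14.8, and fell 1.41-fold, while its partner Psmg1 did not pass (31.8 ± 0.935 against 34.9 ± 2.02). Psmg3 was at 18.4, 21.6 and 19.4 against 16.8, 17.3 and 17.2, and rose 1.16-fold at the edge of the threshold (log2 fold change 0.20 ± 0.075, limma, Benjamini-Hochberg adjusted p = 0.0486). It passed without serum-starved replicate 1 and in none of the 5 fits that left out another library (adjusted p up to 0.162), nor under median-ratio scaling (adjusted p = 0.104). Its partner Psmg4 was at 18.6, 17.2 and 19.2 against 16.5, 18.3 and 14.9, with overlap (95% interval -0.06 to 0.34). Both Psmg3 and Psmg4 rose with the same total (log2 fold changes 0.39 and 0.33). Psmc3ip, which the symbol rule also matched, is a meiotic recombination cofactor and no subunit of the proteasome. Psmc3ip fell 1.32-fold, from 11.8 ± 1.16 to 8.96 ± 0.553, and with the same total it did not pass (log2 difference -0.20). Without it 31 of 46 tested members fell.

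**Figure D5:**
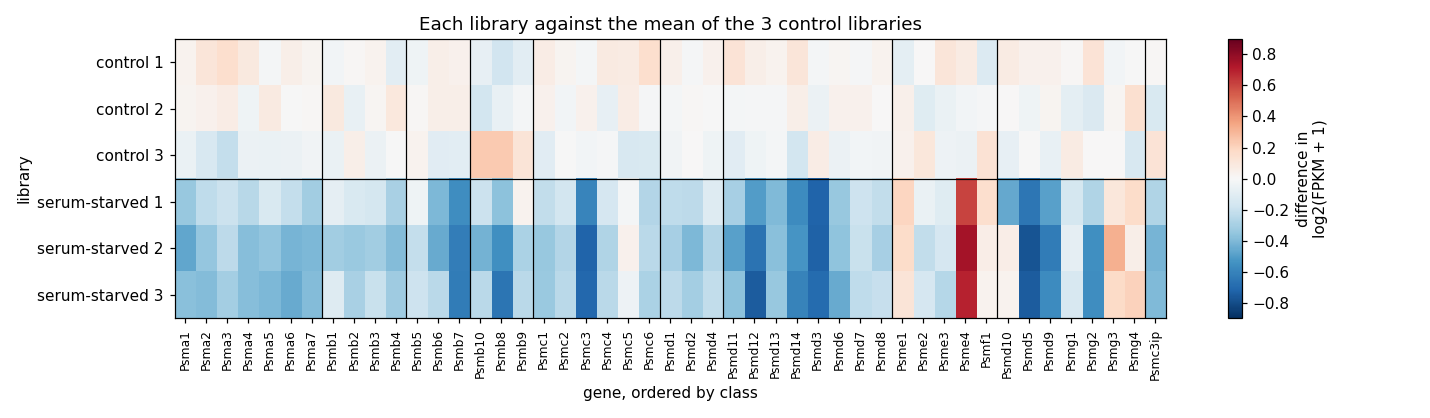
Difference of each library (rows) from the mean of the 3 control libraries, in log2(FPKM + 1), for the 47 tested members (columns, ordered by class with lines between classes). Blue is lower and red higher. The 3 serum-starved rows are mostly blue across the 20S and 19S classes, darkest in Psmb7, Psmc3, Psmd12, Psmd14, Psmd3 and Psmd5, and red in Psme4.

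The falls of at least 0.5 on the log2 scale came from 8 members: Psmb7, Psmb8, Psmc3, Psmd3, Psmd5, Psmd9, Psmd12 and Psmd14. They are 8 of 47 tested members, a share close to the 16.8% of all tested genes that fell as far. The remaining 24 members that fell had smaller changes. With the same total, Psmd3 and Psmd5 alone of the 8 still fell by at least 0.5 (log2 fold changes -0.53 and -0.55). Rat proteasome genes have many copies: RefSeq names 52 pseudogenes or paralogs for 19 members, none with a row of its own in the tables, so reads from a copy could have been assigned to these members and their values are uncertain. Of those 19 members 14 fell and the other 5 did not pass (median -0.26), and of the 28 tested members with no named copy 18 fell and 2 rose (median -0.29). Over all tested genes 29.4% fell and 31.7% rose. With the same total, Psma7, Psmb7, Psmd12 and Psmd14 were the members with copies that fell, and Psme1 and Psmg4 rose. The other members that fell or rose on that scale have no named copy. Among the members with large falls, Psmb7, Psmd12 and Psmd14 have such copies. Psme4, Psmb8, Psmc3, Psmd3, Psmd5 and Psmd9 have none.

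Proteasome subunits and partners with other names were read from a separate list, of whose 13 symbols 11 were matched. Of these, 6 fell, 1 rose and 4 did not pass (2 fell and 3 rose with the same total). For this and the other lists, markers included, the background was 29.4% of all tested genes that fell and 31.7% that rose. With the same total it was 20.2% and 46.1%. Zfand5, which binds the 26S particle and activates it, rose 2.35-fold, from 44.8 ± 2.04 to 105 ± 1.67 (log2 fold change 1.21 ± 0.060, limma, Benjamini-Hochberg adjusted p = 1.3e-06). Its relative Zfand2a fell 1.62-fold, and the lid subunit gene Sem1 and the 19S-bound thioredoxin gene Txnl1 each fell 1.31-fold. Pomp, the chaperone of the beta ring, was at 21.1, 19.5 and 31.5 in serum-starved libraries and at 18.8, 38.6 and 18.3 in controls. One library in each group was high, the spread exceeded any difference, and Pomp did not pass.

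Among 12 genes that control proteasome gene transcription, 11 were tested, of which 2 rose, 2 fell and 7 did not pass (5 rose and 1 fell with the same total). Nfe2l1, the factor that raises proteasome genes when degradation fails, was at 106 ± 6.38 in serum-starved and 103 ± 3.70 in control libraries, with overlapping groups. Nfe2l2 was at 76.9 ± 8.33 and 77.0 ± 6.28. Ngly1, whose product activates the Nfe2l1 protein by removing its sugars, rose 1.35-fold, and the NF-Y subunit gene Nfya 1.41-fold. Maff and Mafg, small partners of these factors, fell 2.89-fold and 1.24-fold.

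Shuttle receptors and VCP cofactors bring substrates to the proteasome. In this list of 11 matched genes there were 5 that fell and 2 that rose, or 1 and 3 with the same total. Without serum-starved replicate 3 or control replicate 2, 3 fell. Nploc4, a cofactor of the segregase VCP, fell 1.28-fold, and the shuttle gene Ubqln1 1.24-fold, while Ubqln2 rose 1.27-fold. The ubiquitin fusion gene Rps27a fell 1.51-fold, from 641 ± 19.5 to 424 ± 36.4. The polyubiquitin gene Ubb was at 986 ± 23.3 against 904 ± 70.1 and did not pass, nor did the main activating enzyme gene Uba1. Uba6 rose 1.24-fold, to 8.30 ± 0.577, and missed the test in 4 of the 6 fits that left out a library (serum-starved 1, serum-starved 2, control 2 and control 3).

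Some peptides made by proteasomes are carried to the cell surface on MHC class I. Of 11 genes for peptide loading and MHC class I induction 10 were tested, of which 4 rose, 1 fell and 5 did not pass (with the same total 8 rose and the other 2 did not pass). Over all tested genes 31.7% rose and 29.4% fell (46.1% and 20.2% with the same total). The class I light chain gene B2m rose 1.63-fold, from 170 ± 4.79 to 277 ± 22.7, Calr 1.38-fold, Tapbp 1.26-fold and Pdia3 1.19-fold. Of 10 genes often taken as references, 3 rose and 4 fell (4 and 3 with the same total). Among them Hprt1 was at 0.15, 0 and 0 in controls and at 12.4, 10.9 and 8.59 in serum-starved libraries, and Pgk1 fell 5.38-fold, from 1293 ± 39.5 to 240 ± 17.1.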

How the data were processed

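The authors deposited 1 table per library with 17093 genes and 1 value per gene. The file headers name no unit. The deposited values are treated as FPKM, a read count corrected for gene length and sequencing depth, since they have decimals and their totals differ between libraries. They could also be another length-scaled unit. The submitters' processing notes list HISAT2 and StringTie, with bcl2fastq 2.0, limma and DESeq2. They name mm10, a mouse build, although the gene IDs are rat ones. Use of strand and the division of reads between copies are not given in the sources used here. No counts are given, so depth is unknown and no counting interval is printed.

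Values were tested as log2(value + 1), which understates the change of low genes, for the 11493 genes that reached 1 in 3 or more libraries. The test was limma 3.58.1 (R 4.3.3) with an intensity trend and 4 residual degrees of freedom, Benjamini-Hochberg adjusted over all tested genes. It was tested on simulated data. Folds are ratios of mean deposited values, and 95% intervals are limma's for 1 gene. Alternatives were other pseudocounts, filters, scalings, library weights, no trend, a replicate block and leaving out each library over the same tested genes. All members may be named. In the other lists up to 4 changed genes with the largest change, up to 2 that did not pass and every gene of a list of at most 6 were named, except a few that are not reported here, and Tap1, Hprt1, Pgk1 and the cell type markers were named after their values were seen. The members and lists were chosen with earlier results of these data known. Tables were joined with Python 3.11.15 and pandas 2.3.3.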

Additional observations from a re-analysis of the deposited data

How the results depend on the processing

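Depth in reads is unknown, and 3 libraries against 3 limit every test. The number of members that fell was 32, with 14 when every library had the same total and 20 after quantile normalization. It was 38 with median-ratio scaling, 36 with library weights, and between 26 and 33 when single libraries were left out. With median-ratio scaling Psma3, Psmb1, Psmb5, Psmb10, Psme3 and Psmg1, which had not passed on the deposited scale, fell. Of the 32, 25 also passed without each single library in turn. The number that rose was 2. It was 1 with no filter, with median-ratio scaling, without an intensity trend and with the replicate block, 5 with the same total, and 1 to 2 without single libraries. The members' median log2 fold change of -0.29 became -0.11 with the same total and -0.15 after quantile normalization, with a range of -0.34 to -0.26 without single libraries. The cause of these shifts was not tested.

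Log2 differences that changed sign belonged to members that had not passed. With the same total they were 0.021 (Psmb1), 0.042 (Psmb5), 0.18 (Psmc5), 0.049 (Psmd10), 0.046 (Psme2), 0.016 (Psme3) and 0.059 (Psmg1), and the median of the assembly chaperones became 0.049. After quantile normalization they were 0.028 (Psmb5) and 0.16 (Psmc5). Without single libraries Psmc5 ranged from -0.079 to 0.027 and Psmd10 from -0.21 to 0.045. Of the other genes, Pomp was at 0.18 with the same total, 0.064 after quantile normalization and -0.22 to 0.33 without single libraries. Nfe2l2 was at 0.19, 0.16 and -0.072 to 0.082 in the same order, Uba1 at 0.11 and 0.071 under these scalings and Nfe2l1 at -0.015 with median-ratio scaling and -0.0013 to 0.079 without single libraries.

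The log2 ratios of immunoproteasome to constitutive subunits kept their sign in all 10 fits each: -0.58 to -0.11 for Psmb8 to Psmb5, 0.09 to 0.31 for Psmb9 to Psmb6 and 0.21 to 0.48 for Psmb10 to Psmb7. A single factor per library nearly cancels in such a ratio, so its sign could hardly change under that kind of scaling. Without single libraries the ratio of Psmb8 to Psmb5 ran from -0.45 to -0.27. With the replicate block 34 members fell. Libraries with the same number deviated together with a correlation of 0.04, -0.16 and 0.10 for numbers 1, 2 and 3, so the numbers were not taken as pairs, and not every library correlated best with its own number.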
